A study of Mus musculus with 4 samples.

Results

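The 33 genes described here encode 2 transporters that bring glucose into the cell and enzymes that use it after its first phosphorylation: those of glycolysis, the enzymes that set its pace, the step of gluconeogenesis catalysed by fructose bisphosphatase, the glycerol phosphate shuttle and the pentose phosphate pathway. They were picked by the gene symbol that the authors' deposited table gives each probe, and had 45 probes, of 26265 named genes and 33697 named probes on the array. Of the 33, 32 were tested, among 17178 genes in all. Pgk1 was left out of the tests because its only spot was marked as an outlier on 1 array. The samples were pancreatic islets, small clusters of endocrine cells, from 8-week-old C57BL/6 mice and cultured for 24 h in RPMI1640 medium with 5.6 mM glucose. The GKA group (2 samples) received 30 µM of a glucokinase activator, called GKA in the labels, and the vehicle group (2 samples) received DMSO. Nothing in the labels tells whether the samples of a group had different mice or dishes as their source, so p-values reflect sample-to-sample spread alone, possibly of technical origin.

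Once phosphorylated, glucose runs down glycolysis to pyruvate, or enters the pentose phosphate pathway, whose oxidative branch makes NADPH and whose non-oxidative branch interconverts sugars. Beta cells are known for sending most pyruvate into mitochondria, for a very active glycerol phosphate shuttle that carries cytosolic reducing power there, and for low levels of lactate dehydrogenase and the lactate exporter. Several glycolytic genes, among them Slc2a1 and Pfkfb3, are textbook targets of the hypoxia-inducible factors, and genes of the oxidative pentose phosphate branch are textbook targets of the antioxidant regulator NRF2.

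Each sample was hybridised to 1 array of a 1-colour Agilent mouse design, and all 4 arrays lay on 1 slide, the GKA samples at positions 3 and 4 and the vehicle samples at positions 1 and 2, so slide position and group cannot be told apart. Between 59.7% and 63.5% of probes per array were well above background, and 0 spots were saturated on any array. Levels are given as scaled intensity, the processed intensity of a probe divided by the 75th percentile of its array, which was 557 and 598 on the GKA arrays and 751 and 755.5 on the vehicle arrays. Differences are log2 of GKA over vehicle with the standard error (SE) of limma, a linear model with a moderated spread, and a gene passed at a Benjamini-Hochberg adjusted p under 0.05 over all genes tested. Without scaling between arrays the median of all genes lay at -0.40, and with scaling on the spike-in controls at -0.56, so every direction below is relative to the bulk of probes on the array.

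Of the 32 genes tested, 7 rose with GKA, 0 fell and 25 did not pass in limma. An unadjusted p under 0.05 was found for 20 members, 2 of them lower with GKA, and for 36.1% of all genes. Of all genes tested, 9.11% were called higher, 8.01% lower and 17.1% in either direction, beside which the members' 7 of 32 stand as a count, with no test that sets them apart from other genes. Pgam2 was kept only through its GKA arrays, and with probes required to be well above background on all 4 arrays it was not tested; the other 6 were among the 10 of 31 members that then passed, where 20.3% of all genes were called. The genes that rose were Gapdh, Pkm2 (now Pkm) and Pgam2 of lower glycolysis, Fbp2 of gluconeogenesis, Gpd2 of the glycerol phosphate shuttle, and G6pdx and Pgd of the oxidative pentose phosphate branch. Both GKA arrays lay above both vehicle arrays in 21 members, where this held for 32.4% of all genes, and below both in 3, against 33.5% of all genes. The difference was above 0 in 23 members and in 48.6% of all genes. The median difference was 0.48 over the members and -0.01 over all genes tested. The count of 7 rests on both GKA arrays: without GKA replicate 1 only Fbp2 passed, and likewise without GKA replicate 2, while 3.61% and 3.1% of all genes were called in those fits.

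**Figure D1:**
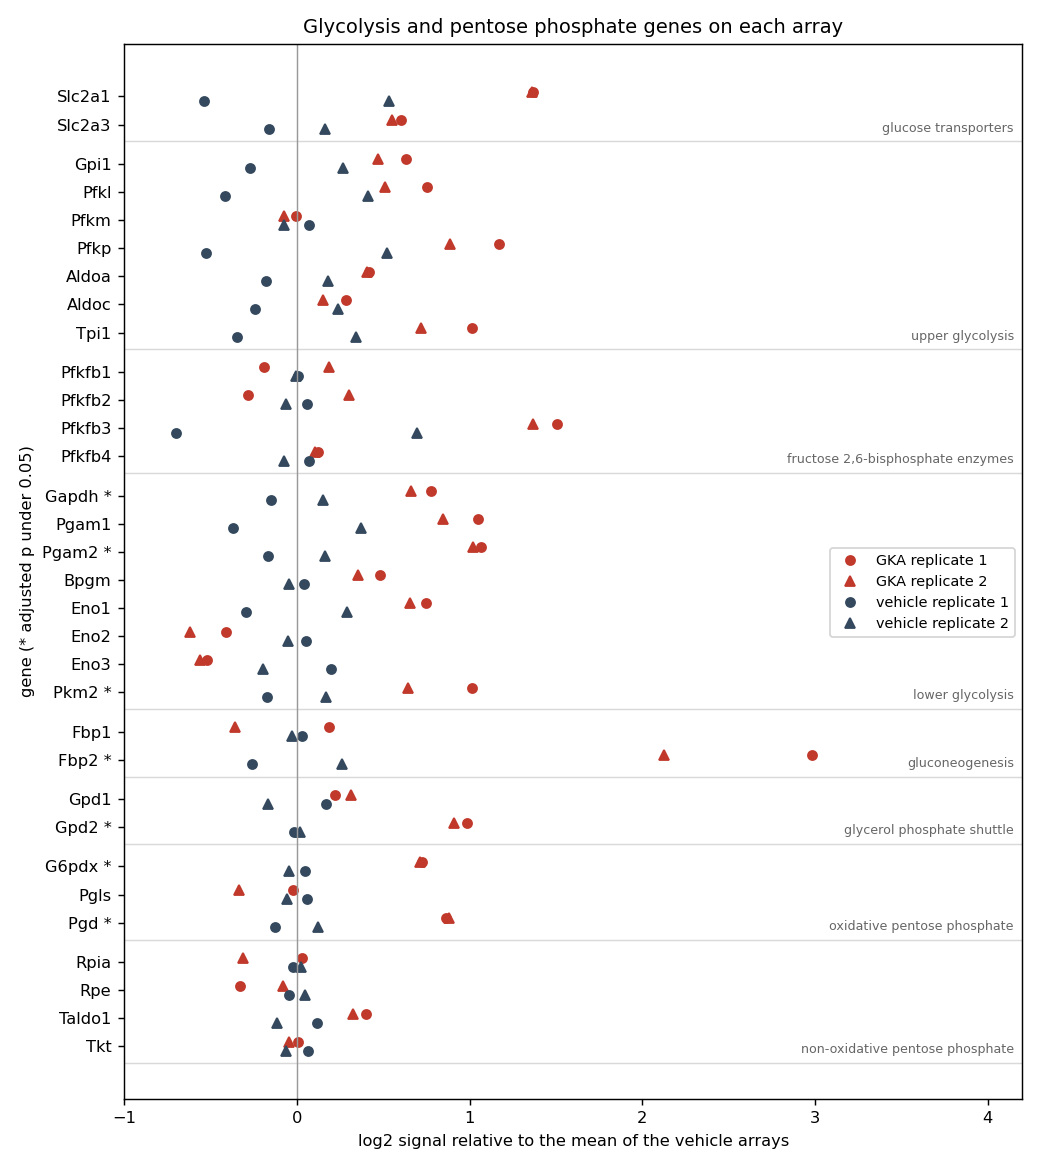
Each row is a gene and the horizontal axis is the log2 signal on each array relative to the mean of the vehicle arrays; red symbols are GKA samples, dark symbols vehicle samples, circles replicate 1 and triangles replicate 2, and an asterisk marks the 7 genes that passed. Gpd2, G6pdx and Pgd have vehicle symbols close together and GKA symbols to their right, while Slc2a1, Pfkp and Pfkfb3 have vehicle symbols over 1 log2 unit apart.

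The vehicle arrays differed from each other in a set of glycolytic genes. Vehicle replicate 2 exceeded vehicle replicate 1 by more than 0.5 on the log2 scale in 9 of the 32 members (Slc2a1, Gpi1, Pfkl, Pfkp, Tpi1, Pfkfb3, Pgam1, Eno1 and Fbp2), where 4.65% of all genes did so. At any size, vehicle replicate 2 was the higher in 19 members and in 42.5% of all genes. The opposite gap of over 0.5 was found in 0 members and in 3.95% of all genes. The GKA arrays were closer, with a gap over 0.5 in either direction in 3 members (Pfkfb2, Fbp1 and Fbp2) and in 6.91% of all genes. In 8 of those 9 genes, Fbp2 being the exception, the difference with GKA did not pass. The part that the gap plays in the GKA differences was not tested.

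**Figure D2:**
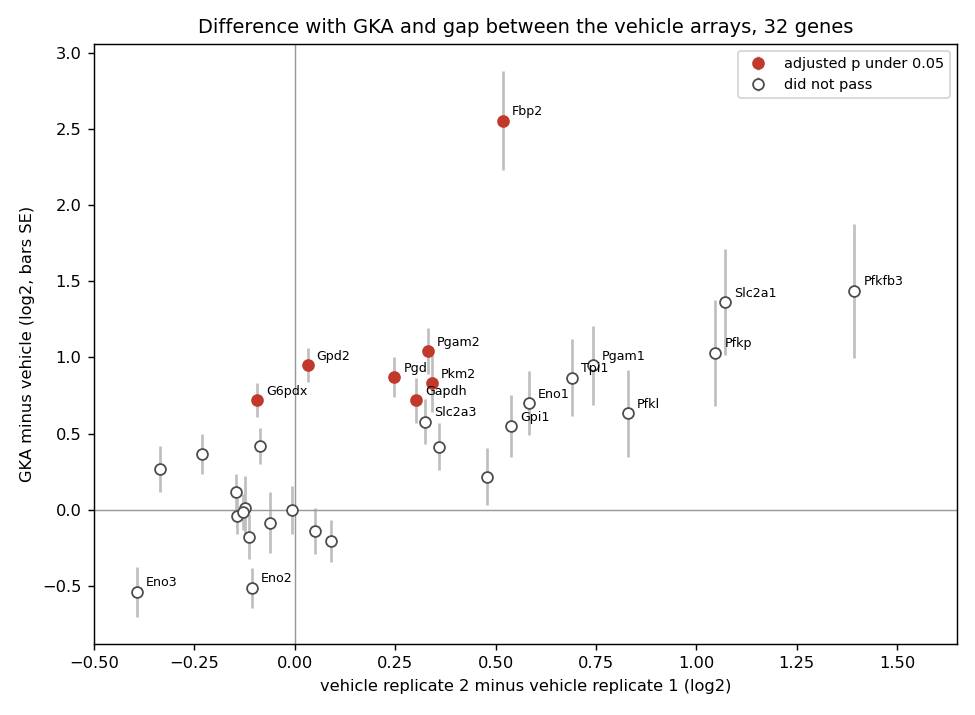
Each point is 1 of the 32 genes tested, with the gap between the vehicle arrays on the horizontal axis and the difference between GKA and vehicle on the vertical axis (both log2, bars SE). Filled points passed; Gpd2 and G6pdx have a large difference at a gap near 0, and Slc2a1, Pfkp and Pfkfb3 have the widest gaps.

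The glucose transporter Slc2a1 (GLUT1), whose probe lies on chromosome 4, 118809864 to 118809923 on build mm9, had a scaled intensity of 9.59 and 9.57 on the GKA arrays, against 2.57 and 5.40 on the vehicle arrays. The GKA arrays were nearly equal and both above the vehicle arrays, whose gap of 1.07 was larger than the distance of 0.83 between vehicle replicate 2 and the lower GKA array. The difference of 1.36 ± 0.35 did not pass (adjusted p = 0.0531 in limma). It passed under 7 of 15 alternatives, among them the 75th percentile taken over single spots (adjusted p = 0.0492 in limma). The 7 include the fits without either vehicle replicate, in which the gap between the vehicle arrays does not enter the spread. Against vehicle replicate 2 alone the difference was 0.83, and against vehicle replicate 1 alone 1.90. Slc2a3 (GLUT3), a high-affinity transporter best known from neurons, stood at 0.402 and 0.388 with GKA, against 0.237 and 0.296 with vehicle, a difference of 0.58 ± 0.15 that did not pass (adjusted p = 0.0544).

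In upper glycolysis, which splits glucose 6-phosphate into triose phosphates, 0 of 7 genes passed in limma, against 17.1% of all genes. An unadjusted p under 0.05 in limma was found for 4, against 36.1% of all genes. Both GKA arrays lay above both vehicle arrays in 5, against 32.4% of all genes. Phosphofructokinase, the committed step, is made from 3 subunit genes. The platelet-type subunit Pfkp stood at 5.91 and 4.86 with GKA, against 1.82 and 3.77 with vehicle (1.03 ± 0.35, adjusted p = 0.101), and the liver-type subunit Pfkl at 8.06 and 6.82 with GKA, against 3.59 and 6.37 with vehicle (0.63 ± 0.29, adjusted p = 0.178). In both, vehicle replicate 2 lay closer to the GKA arrays than to vehicle replicate 1. Without vehicle replicate 1 the difference was 0.51 for Pfkp and 0.22 for Pfkl, while without vehicle replicate 2 it was 1.56 and 1.05. The muscle-type subunit Pfkm, at 4.74 and 4.53 with GKA and 5.01 and 4.53 with vehicle, overlapped between the groups (-0.04 ± 0.12). The second Pfkp probe was dim and gave a smaller difference, 0.50. Whether the subunits differed in their response was not tested.

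Triose phosphate isomerase, Tpi1, stood at 98.9 and 80.6 with GKA, against 38.5 and 62.2 with vehicle (0.87 ± 0.25, adjusted p = 0.0735), and its other probe gave 0.86. Glucose 6-phosphate isomerase, Gpi1, stood at 119 and 106 with GKA, against 63.7 and 92.6 with vehicle (0.55 ± 0.20, adjusted p = 0.121), and its 3 overlapping probes ran from 0.55 to 0.58. For both genes the groups did not overlap, and vehicle replicate 2 was the higher vehicle array. Without vehicle replicate 1 the difference was 0.52 for Tpi1 and 0.28 for Gpi1, and neither passed. The aldolases, which cleave the hexose bisphosphate, were less far apart: Aldoa stood at 0.41 ± 0.16 and below 0 with spike-in scaling or normexp and quantile normalization, and Aldoc, the brain isoenzyme, at 0.22 ± 0.19 with overlapping groups.

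The 4 Pfkfb genes encode the enzymes that make and break fructose bisphosphate of the regulatory kind, the strongest activator of phosphofructokinase. Pfkfb3, the form with the highest kinase activity, stood at 5.12 and 4.65 with GKA, against 1.11 and 2.92 with vehicle. The GKA arrays were alike and above both vehicle arrays, whose gap of 1.39 was the widest of the 32 genes tested. Its difference of 1.44 ± 0.44 did not pass (adjusted p = 0.0820 in limma). It was 0.74 against vehicle replicate 2 alone and 2.13 against vehicle replicate 1 alone, and the second, dim probe of Pfkfb3 gave 1.38. Pfkfb1 (0.00), the liver form, and Pfkfb2 (0.01), the heart form, overlapped between the groups, and for Pfkfb2 the direction turned with median, no or spike-in scaling. Pfkfb4 stood at 0.11 ± 0.12, and below 0 with no or spike-in scaling.

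In lower glycolysis, where ATP and NADH are made and pyruvate is formed, 3 of 8 genes tested rose, against 9.11% of all genes. Among these 3, Pgam2 was kept only through its GKA arrays. Gapdh, the dehydrogenase that makes NADH and a gene often used for normalization, stood at 367 and 339 on the GKA arrays, against 193 and 238 on the vehicle arrays, and rose by 0.72 ± 0.15, or 1.64-fold (adjusted p = 0.0338 in limma). Its GKA values were both above its vehicle values on all 7 Gapdh probes, whose differences ran from 0.72 to 1.02. The probe used has the highest signal and the smallest difference of the 7. On these probes the gap between the vehicle arrays ran from 0.30 to 0.73. A probe named Gapdh that the authors' deposited table places on chromosome 8, while the gene lies on chromosome 6 in RefSeq, gave 0.91; processed copies of Gapdh are common in the mouse genome, so the source of its signal is uncertain. Without scaling Gapdh stood at 0.33 and with spike-in scaling at 0.17, and it passed in neither; nor did it pass without vehicle replicate 1 (0.57, adjusted p = 0.0837).

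**Figure D3:**
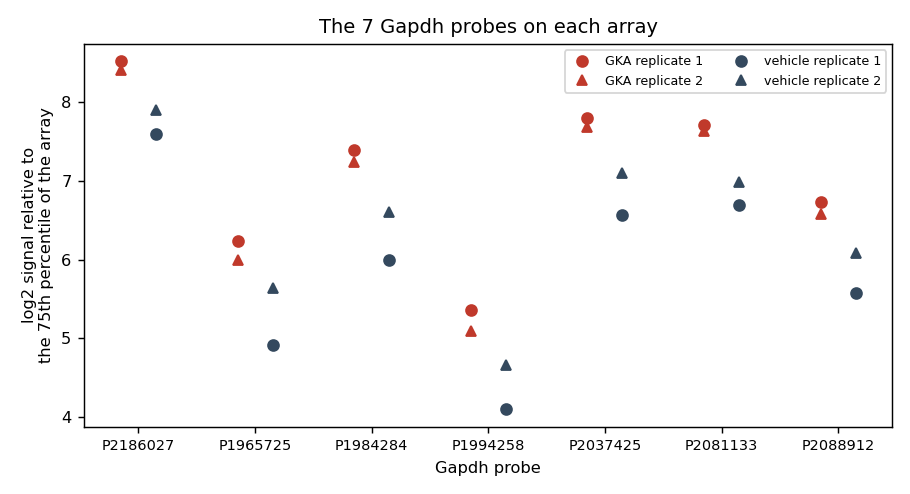
The horizontal axis holds the 7 Gapdh probes, the one used in the tests first, and the vertical axis the log2 signal relative to the 75th percentile of the array, with GKA samples in red and vehicle samples in dark symbols. On all 7 probes both GKA symbols lie above both vehicle symbols, and vehicle replicate 2 lies above vehicle replicate 1.

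Pkm2, the pyruvate kinase gene of most non-hepatic tissues, stood at 80.5 and 62.2 with GKA, against 35.4 and 44.8 with vehicle, with no overlap. It rose by 0.83 ± 0.19 (adjusted p = 0.0420), which did not hold without vehicle replicate 1 (0.66, adjusted p = 0.102) and was 0.45 without scaling and 0.28 with spike-in scaling, neither of which passed. Its 1 probe was not used to tell the M1 and M2 isoforms apart. Pgam2, the muscle phosphoglycerate mutase, rose by 1.04 ± 0.15 (adjusted p = 0.0156) but was near the detection limit. Its processed intensity was 28.9 and 30.1 with GKA, against 16.6 and 21.0 with vehicle, and it was well above background on both GKA arrays and on 1 of 2 vehicle arrays. It passed the filter only through the group where it was high, which favours a difference, and its value rests on a vehicle signal close to background. The widely expressed Pgam1 stood at 108 and 93.7 with GKA, against 40.3 and 67.5 with vehicle, and its difference of 0.95 ± 0.26 did not pass (adjusted p = 0.0630), nor did that of 0.58 without vehicle replicate 1.

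The enolases ran in opposite directions, and none of the 3 passed. Eno1, the ubiquitous form, stood at 111 and 104 with GKA, against 53.8 and 80.6 with vehicle (0.70 ± 0.21, adjusted p = 0.0783), and at a difference of 0.41 without vehicle replicate 1, which did not pass. The neuronal and neuroendocrine form Eno2 stood at 5.10 and 4.42 with GKA, against 7.04 and 6.54 with vehicle (-0.51 ± 0.13, adjusted p = 0.0531). The muscle form Eno3 stood at 1.12 and 1.09 with GKA, against 1.84 and 1.40 with vehicle (-0.54 ± 0.16, adjusted p = 0.0787). In each of the 3 the groups did not overlap, Eno1 being higher and Eno2 and Eno3 lower with GKA. Among all genes, 32.4% were higher and 33.5% lower without overlap. The sign of each enolase held under all 15 alternatives run. Eno2 passed as lower under 6 of them, Eno3 under 5 and Eno1 as higher under 2. Without scaling and with spike-in scaling both Eno2 and Eno3 passed. In those 2 fits 7654 and 7576 of 17178 genes were called lower, against 1376 in the full comparison. With spike-in scaling all members tested had the same SE of 0.27, whatever their own spread between replicates. Whether the enolases differed from one another was not tested. Bpgm, which makes the red cell effector bisphosphoglycerate, stood at 0.42 ± 0.12 (adjusted p = 0.0689), and below 0 with spike-in scaling.

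Pgk1, the first ATP-forming enzyme of glycolysis, had a scaled intensity of 132 on GKA replicate 1, against 38.9 and 83.8 on the vehicle arrays. Its single spot was marked as an outlier on GKA replicate 2, where it read 219. With the marked spot kept, an alternative added after seeing the data, its difference was 1.57 ± 0.42 and did not pass (adjusted p = 0.0601). The authors' deposited table places this probe on chromosome 3, while the gene lies on chromosome X in RefSeq, so which copy it reads is uncertain.

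Fbp2, the muscle form of fructose bisphosphatase, which runs the phosphofructokinase step backwards, had the largest difference of the 32 genes. It stood at 0.355 and 0.196 on the GKA arrays, against 0.0375 and 0.0536 on the vehicle arrays, and was well above background on all 4. Its processed intensity was 197.5 and 117.1 with GKA, against 28.1 and 40.5 with vehicle, so the fold rests on dim vehicle signals. Both GKA arrays lay far above both vehicle arrays, though GKA replicate 1 read higher than GKA replicate 2. It rose by 2.56 ± 0.33, or 5.88-fold (adjusted p = 0.0125 in limma), and passed under 14 of 15 alternatives, with values from 1.32 to 2.98 over all 15, the exception being the fit without a filter on dim probes (adjusted p = 0.0744). The difference was lowest with normexp background correction, at 1.49 with the 75th percentile and 1.32 with quantile normalization. The probe spans chromosome 13, 62950852 to 62955367 on build mm9 in the authors' deposited table. The liver form Fbp1, which neighbours it on that chromosome, overlapped between the groups at 7.28 and 5.0 with GKA and 6.54 and 6.27 with vehicle (-0.09 ± 0.20, adjusted p = 0.789). Of 5 skeletal muscle markers, Myh1, Myh4, Ckm and Tnnt3 were not well above background on both arrays of either group, and Acta1 was lower with GKA (-0.86, adjusted p = 0.0212).

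The mitochondrial glycerol phosphate dehydrogenase Gpd2, which passes electrons from the shuttle to the respiratory chain and is abundant in beta cells, had the smallest SE of the genes that rose. It stood at 2.41 and 2.29 with GKA, against 1.21 and 1.23 with vehicle. The replicates of each group were nearly equal, and the groups lay 0.89 apart at their closest on the log2 scale. It rose by 0.95 ± 0.11, or 1.93-fold (adjusted p = 0.0114), and its difference was 0.93 and 0.96 with either vehicle replicate left out; with either GKA replicate left out it was 0.91 and 0.99 and did not pass (adjusted p = 0.0590 and 0.0560). Gpd1, its cytosolic partner, stood at 4.91 and 5.23 with GKA, against 4.72 and 3.75 with vehicle (0.27 ± 0.15, adjusted p = 0.265), and below 0 with no or spike-in scaling.

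Both NADPH-making dehydrogenases of the oxidative pentose phosphate branch rose, where 9.11% of all genes were called higher. The lactonase between them did not pass. G6pdx, the entry enzyme, stood at 6.06 and 6.02 with GKA, against 3.79 and 3.55 with vehicle, and rose by 0.72 ± 0.11 (adjusted p = 0.0188). Pgd, the phosphogluconate dehydrogenase, stood at 5.03 and 5.08 with GKA, against 2.53 and 3.01 with vehicle, and rose by 0.87 ± 0.13, or 1.83-fold (adjusted p = 0.0179). In both genes the GKA arrays were almost identical and well clear of the vehicle arrays. With 1 array left out, the difference ran from 0.67 to 0.77 for G6pdx and from 0.75 to 1.00 for Pgd. Neither gene passed when either GKA replicate was left out. Without scaling Pgd passed (0.49) and G6pdx did not (0.33, adjusted p = 0.0618), and with spike-in scaling neither did (0.33 and 0.17). The lactonase Pgls overlapped between the groups (-0.18 ± 0.15).

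In the non-oxidative branch, 0 of 4 genes passed in limma (Taldo1 had an unadjusted p of 0.0376), against 17.1% of all genes. Transketolase, Tkt, stood at 21.6 and 20.9 with GKA and 22.5 and 20.6 with vehicle, so that the vehicle values enclosed the GKA values (-0.02 ± 0.12, adjusted p = 0.931). Transaldolase, Taldo1, stood at 54.3 and 51.6 with GKA, against 44.6 and 38.0 with vehicle, without overlap (0.36 ± 0.13, adjusted p = 0.116), and below 0 with no or spike-in scaling. The isomerase Rpia (-0.14) and the epimerase Rpe (-0.20), which interconvert pentose phosphates, did not pass. Whether the oxidative and non-oxidative branches differed was not tested.

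**Figure D4:**
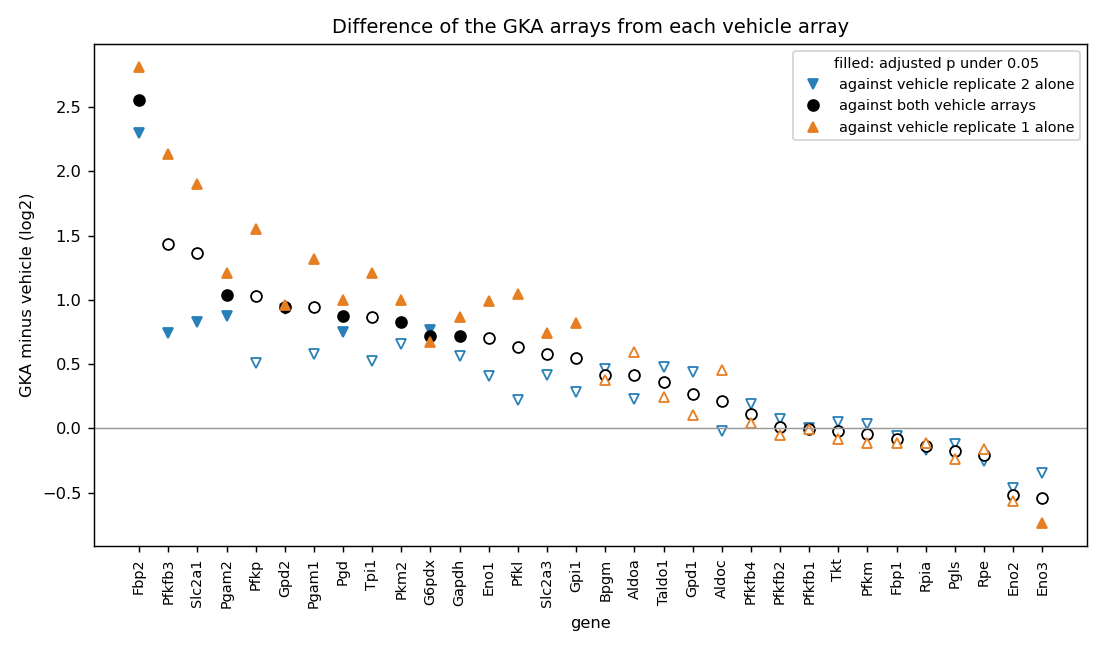
Genes run along the horizontal axis in order of their difference, and the vertical axis gives GKA minus vehicle on the log2 scale against both vehicle arrays (circles) or with 1 vehicle array left out (triangles); filled symbols passed. Symbols of Gpd2 and G6pdx nearly coincide, while those of Pfkfb3 run from 0.74 to 2.13 and those of Slc2a1 from 0.83 to 1.90.

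Which genes passed depended on the vehicle array that was left out. Without vehicle replicate 2, 16 members were higher and 1 lower: all 7 that rose in the full comparison plus Slc2a1, Slc2a3, Gpi1, Pfkl, Pfkp, Tpi1, Pfkfb3, Pgam1 and Eno1, with Eno3 lower, while 16.5% of all genes were called. Without vehicle replicate 1, 7 members were higher and 0 lower, and 10.4% of all genes were called. These were Fbp2, G6pdx, Gpd2, Pgam2 and Pgd, shared with the full comparison, and Slc2a1 and Pfkfb3. In such fits a group of 1 array is taken to vary like the other group, so the gap between the vehicle arrays does not enter the spread.

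The RefSeq promoter windows of the members, 250 bases before to 50 after a transcription start on build GRCm38.p6, were searched on both strands for the motifs below. Of the 33 genes, 31 had a window. The core of the hypoxia response element, ACGTG, lay in a window of 13 of the 31 genes, or 41.9%, against 21.8% of all 27025 genes with windows. The E-box CACGTG, which contains that core and is also the half-site of the glucose-sensing factor ChREBP, lay in 4 (12.9%, against 8.09% of all genes). The antioxidant response element core TGACNNNGC lay in 5 (16.1%, against 14.0%). Aldoa, Fbp2 and G6pdx had matches to both ACGTG and TGACNNNGC. Genes with several starts have several windows and so more chances of a match, and a match is no evidence of binding. Of the members whose vehicle gap exceeded 0.5, Slc2a1, Pfkfb3, Pgam1 and Fbp2 had an ACGTG match. Gpi1, Pfkl, Pfkp, Tpi1 and Eno1 had none. Pfkm, Aldoc and Pfkfb2, whose groups overlapped, had a match. Any link between motif and vehicle gap was not tested. The bases before the start are shown for 4 genes with a match: Slc2a1 and Pfkfb3, whose vehicle arrays lay furthest apart, Fbp2, which had the largest difference, and G6pdx, the entry to the NADPH branch. Capitals mark the ACGTG motif on either strand in the first 4 sequences, where a CACGTG reads as a match on both strands, and TGACNNNGC on the reverse strand in the last. They lie on chr4:119108495-119108744 (plus strand), chr2:11502091-11502340 and chr2:11553930-11554179 (both minus), chr13:62858401-62858650 (minus) and chrX:74428881-74429130 (minus).
Slc2a1: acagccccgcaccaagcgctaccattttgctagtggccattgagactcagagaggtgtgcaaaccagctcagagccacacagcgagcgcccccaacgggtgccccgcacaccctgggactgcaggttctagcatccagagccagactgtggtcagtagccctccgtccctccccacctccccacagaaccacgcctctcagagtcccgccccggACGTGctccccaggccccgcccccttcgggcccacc
Pfkfb3 first window: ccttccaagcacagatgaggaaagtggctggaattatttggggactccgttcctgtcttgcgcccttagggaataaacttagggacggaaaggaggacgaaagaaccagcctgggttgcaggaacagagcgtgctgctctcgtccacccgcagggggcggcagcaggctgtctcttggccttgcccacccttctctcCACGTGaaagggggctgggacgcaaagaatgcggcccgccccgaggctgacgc
Pfkfb3 second window: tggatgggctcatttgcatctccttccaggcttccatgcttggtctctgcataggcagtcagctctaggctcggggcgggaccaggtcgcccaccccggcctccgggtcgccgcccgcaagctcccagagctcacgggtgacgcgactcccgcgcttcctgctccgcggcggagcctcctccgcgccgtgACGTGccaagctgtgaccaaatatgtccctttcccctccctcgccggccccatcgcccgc
Fbp2: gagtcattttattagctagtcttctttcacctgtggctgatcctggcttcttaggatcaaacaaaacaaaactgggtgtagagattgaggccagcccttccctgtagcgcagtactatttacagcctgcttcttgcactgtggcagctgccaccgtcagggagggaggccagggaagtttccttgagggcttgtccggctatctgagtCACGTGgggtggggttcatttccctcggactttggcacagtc
G6pdx: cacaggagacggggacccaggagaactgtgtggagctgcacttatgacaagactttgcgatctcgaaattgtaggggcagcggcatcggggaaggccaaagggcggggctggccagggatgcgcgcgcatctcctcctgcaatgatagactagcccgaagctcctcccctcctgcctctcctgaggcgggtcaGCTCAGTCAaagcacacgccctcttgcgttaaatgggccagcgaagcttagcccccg

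Genes next to these pathways were read from a list of 37: glucose entry and phosphorylation, other isoenzymes and side branches, the fate of pyruvate, and other makers of cytosolic NADPH. Of 34 tested, 8 rose, 3 fell and 23 did not pass, against 17.1% called among all genes, with a median of 0.32. The lactate dehydrogenase Ldha stood at 93.0 and 66.1 with GKA, against 11.8 and 24.7 with vehicle, and rose by 2.20 ± 0.37 (adjusted p = 0.0226 in limma). The lactate exporter Slc16a3 stood at 10.8 and 7.20 with GKA, against 1.47 and 3.32 with vehicle, and rose by 2.00 ± 0.42 (adjusted p = 0.0345). For both, the vehicle arrays differed by over 1 on the log2 scale in the same sense as Slc2a1 and Pfkfb3 (1.06 and 1.17).

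The other genes named here from that list that rose had vehicle arrays close together. G6pc2, the islet glucose 6-phosphatase, stood at 48.5 and 49.4 with GKA, against 12.2 and 13.3 with vehicle, and rose by 1.94 ± 0.12 (adjusted p = 0.00341). Pdk3, a kinase that inhibits pyruvate dehydrogenase, rose by 0.75 ± 0.13 (adjusted p = 0.0237). 9630033F20Rik (now Tigar), a phosphatase known for favouring the pentose phosphate pathway, rose by 0.47 ± 0.11 (adjusted p = 0.0454). G6pd2, an autosomal copy of G6pdx, rose by 0.62 ± 0.14 (adjusted p = 0.0418), and its signal cannot be separated with certainty from that of G6pdx. Gckr, a regulatory protein of glucose phosphorylation, was not well above background on the 2 vehicle arrays. With GKA it read 3.36-fold higher (1.75 ± 0.27, adjusted p = 0.0180 in limma). This is an estimate and no lower limit, set against the probe's own vehicle signal. That signal exceeded the lowest signal called well above background there. Gckr, counted among the 8 that rose, was kept only through its GKA arrays, which favours a difference.

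Khk, the fructokinase, fell by 1.20 ± 0.18 (adjusted p = 0.0164), Hk3, the hexokinase of leukocytes, by 0.96 ± 0.13 (adjusted p = 0.0130) and Pklr, the liver and red cell pyruvate kinase, by 0.62 ± 0.11 (adjusted p = 0.0251). Of 7 leukocyte markers 4 fell (Ptprc, Emr1, Lyz2 and Aif1), where 8.01% of all genes did. Cd68 stood at 0.39 with both GKA arrays above both vehicle arrays, Csf1r at 0.08 with overlap and Cd52 at -0.44, and these 3 did not pass. The 7 had a summed scaled intensity of 4.99 and 3.94 on the GKA arrays, against 6.15 and 5.63 on the vehicle arrays. In bulk samples fewer cells of a type and less RNA per cell cannot be told apart, and the part of leukocytes in the Hk3 value was not tested.

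**Figure D5:**
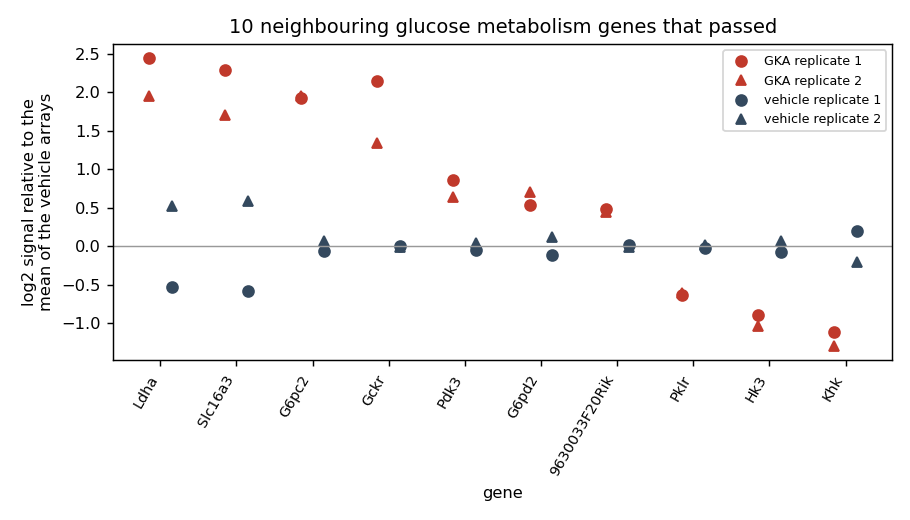
The horizontal axis holds 10 of the 11 neighbouring genes that passed and the vertical axis their log2 signal on each array relative to the mean of the vehicle arrays, with GKA samples in red and vehicle samples in dark symbols. Ldha and Slc16a3 have vehicle symbols about 1 unit apart, unlike G6pc2 and Pdk3.

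The labelled tissue was checked against its markers. All 7 beta-cell markers (Ins1, Ins2, Iapp, Slc2a2, Pdx1, Nkx6-1 and Mafa) and all 5 of the other endocrine cells were measured. Of 7 acinar markers Cpa1, Prss1, Pnlip and Ptf1a were not well above background on both arrays of either group. The acinar markers Ctrb1, Cel and Amy2a5 were measured. Their summed scaled intensity was 0.220 and 0.175 with GKA, against 0.225 and 0.166 with vehicle. The summed scaled intensity of beta-cell markers was 1364 and 1327 on the GKA arrays, against 1104 on each vehicle array, most of it from Ins1 (0.31), Ins2 (0.25) and Iapp (0.27), which did not pass. Pdx1 (1.11 ± 0.16, adjusted p = 0.0166) and Mafa (1.06 ± 0.14, adjusted p = 0.0136), both transcription factors of beta cells, rose, as did the delta-cell hormone Sst (0.83 ± 0.13, adjusted p = 0.0198), where 9.11% of all genes were called higher. Fibroblast and stellate markers summed to 4.29 and 4.81 with GKA, against 5.94 and 7.45 with vehicle. Of these 5 markers 1 was lower, where 8.01% of all genes were called lower. Duct markers summed to 15.1 and 13.8 with GKA, against 26.8 and 22.5 with vehicle, with Krt7 lower. Endothelial markers summed to 12.01 and 10.6 with GKA, against 10.9 and 10.1 with vehicle, with Cdh5 higher and Emcn lower. Their part in the values of the glycolytic and pentose phosphate genes was not tested.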

How the data were processed

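Total RNA of 4 islet samples, 2 per group, was hybridised to 1-colour Agilent arrays, 1 each. The deposited intensity of each spot was background-subtracted and detrended by Agilent Feature Extraction, version 10.7.3.1 per the file headers and 9.1 per the submitters' processing notes, with no scaling across arrays. The authors deposited, besides, an intensity per group and probe, which equalled the mean of the arrays within 0.1% for 100% of probes with a single spot, and their deposited ratio of GKA over control, which was not used for any result.

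Here, control spots were dropped, as were those flagged by the scanner software for non-uniform pixels or as outliers of their replicate spots. Remaining spots of a probe were averaged as log2 values, and each array's 75th percentile over probes was subtracted. Probes were kept where both arrays of 1 or both groups were well above background, and the probe with the highest mean signal stood for its gene. GKA was compared with vehicle in limma 3.58.1 (R 4.3.3, lmFit and eBayes, two-sided) over 17178 genes, with 2 residual and 3.33 prior degrees of freedom and Benjamini-Hochberg adjustment. An exact permutation of 4 arrays cannot go below p = 0.333, so none was run. Precision is limited by the 4 arrays. The script was tested on simulated data. Values on each array were given for members that passed or differed by at least 0.5, and for the others where they help a comparison. Members, lists and motifs were chosen with earlier results of these data known. Sequences are RefSeq's, build GRCm38.p6, matched by gene identifier. Probe positions are on build mm9, per the file headers. The normexp alternatives used the median signal, since the mean signal named in the plan is not among the columns used here. Some genes of the neighbouring list are counted but not reported here by name.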

Additional observations from a re-analysis of the deposited data

How the results depend on the processing

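The limits of these values are 2 arrays a group, 1 slide, a scaling that fixes the bulk of probes, and vehicle arrays that differ in glycolytic genes. Under 13 alternative settings and 2 more added after seeing the data (the percentile over spots, and marked spots kept), the 7 members that rose stayed above 0 wherever they were measured, and Fbp2 passed in 14 of 15, Gpd2 and Pgd in 11, G6pdx in 10, Pgam2 in 9 of 14, Pkm2 in 8 and Gapdh in 7. The number of members that passed was 7 in the full comparison, where 17.1% of all genes were called. It became 11 without scaling (4 higher, 7 lower), where 48.9% of all genes were called. With normexp background correction and the 75th percentile it was 19 (29.4% of all genes), and with normexp and quantile normalization 14 (23.8%). Without the filter on dim probes it was 0, where 0.849% of 26263 genes were called by limma and 16 members had an unadjusted p under 0.05. With 1 array left out it moved in both directions. With spike-in scaling the number was 9, of which 3 higher and 6 lower, where 46.6% of all genes were called. In that fit every member tested had the same SE of 0.27, so a pass there does not reflect a gene's own spread between replicates. The 2941 genes called in all became 8404 without scaling, 8010 with spike-in scaling, 5045 with normexp and the 75th percentile and 223 without the filter, and ranged from 533 to 2835 with 1 array left out. Among all genes the split of 1565 higher and 1376 lower became 750 and 7654 without scaling, 434 and 7576 with spike-in scaling, and 1381 and 1848 with median scaling. The 11 neighbouring genes became 17 with normexp and the 75th percentile and 2 without the filter, and ranged from 3 to 13 with 1 array left out. The cause of these shifts was not tested.

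The replicate numbers are shared by the groups, but the deviations of same-numbered samples correlated at only 0.08 over genes, and nothing in the labels ties them. With the replicate block, 1916 genes were called and 5 members, losing Gapdh (adjusted p = 0.0612) and Pkm2 (adjusted p = 0.0805).

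Members that did not pass changed sign as follows. With spike-in scaling Aldoa stood at -0.13, Aldoc at -0.33, Pfkfb2 at -0.54, Pfkfb4 at -0.43, Bpgm at -0.13, Gpd1 at -0.28 and Taldo1 at -0.18. Without scaling Aldoc stood at -0.17, Pfkfb2 at -0.38, Pfkfb4 at -0.27, Gpd1 at -0.12 and Taldo1 at -0.021. Pfkfb2 stood at -0.042 with median scaling and at -0.0074 with normexp and quantile normalization, where Aldoa stood at -0.0099, and Pfkfb1 at 0.092 with normexp and the 75th percentile. With 1 array left out, the values ran from -0.11 to 0.032 for Pfkm, -0.022 to 0.46 for Aldoc, -0.19 to 0.19 for Pfkfb1, -0.28 to 0.30 for Pfkfb2, -0.36 to 0.18 for Fbp1, -0.31 to 0.032 for Rpia and -0.083 to 0.047 for Tkt.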
